A study of Mus musculus with 7 samples.

Results

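Of the 75880 sites of accessible chromatin listed for WT and Smad2/3 DKO EpiLCs, 28 had their midpoint within 50 kb of a curated RefSeq transcription start site (TSS) of Id1, Id2, Id3 or Id4. They comprised 11 sites at Id1, 7 at Id2, 5 at Id3 and 5 at Id4, and are called Id sites below. Position alone chose the sites around these genes, so that no measured value of a site entered the rule. The genes themselves were chosen with earlier results of these data known. An Id site may belong to another gene. The TSS nearest to the midpoint was that of an Id gene at 14 of the 28 sites. In GRCm38 (mm10), Id1 lies at chr2:152736251-152737410 on the plus strand and Id2 at chr12:25093799-25096092 on the minus strand. Id3 lies at chr4:136143822-136145392 and Id4 at chr13:48261116-48266028, both on the plus strand.

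ATAC-seq, in which the Tn5 transposase inserts adapters into open DNA, was performed on epiblast-like cells (EpiLCs), a culture model of the primed epiblast, to ask how the Nodal effectors Smad2 and Smad3 shape accessibility during priming. WT cells were clone CCE ESCs of the strain 129/Sv//Ev. Smad2/3 DKO cells were clone KT15.1F6, made from Smad2 tm1Rob/tm1Rob ESCs of the same strain by removing the region around Smad3 exon 1 with Cas9 nickase. Both genotypes left 2i and LIF for 48 h in 12 ng/ml Fgf2 and 20 ng/ml activin A, the ligand whose signal Smad2/3 transmit, and 3 differentiations of each were profiled from 75000 cells in technical duplicate. A control of Tn5-treated genomic DNA, 100 ng from WT EpiLCs, has no column in the table of sites. With 1 clone per genotype, effects of the clone and of the genotype cannot be told apart.

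The deposited table gives a concentration for each site, the log2 mean of normalized reads, as the authors' pooled value for WT, for DKO and for both. It holds no value per library. The depth and the spread between differentiations could therefore not be computed from it. The authors' own per-site test results, also in the table, were not used here, and every comparison below sets 1 pooled value against another with no test. A difference is the DKO minus the WT concentration on the log2 scale, and a site past 1.5-fold differed by more than 0.585 either way. A concentration of 4 corresponds to 16 normalized reads. The Smad3 promoter site had a concentration of 5.42 in WT and the lowest listed DKO value, -0.10. Of the EpiLC markers Fgf5, Pou3f1, Dnmt3b, Pou5f1 and Otx2, 4 had a listed site within 1 kb of a TSS, with WT and DKO concentrations between 5.63 and 7.72. Otx2 had none at that distance, but had a listed site 1003 bp from a TSS, at 5.86 in WT and 5.76 in DKO.

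Id proteins are helix-loop-helix factors that lack a DNA-binding basic region. They pair with E proteins and keep them, and the basic helix-loop-helix factors that need them, off E-box DNA. Their genes are classical direct targets of Bmp signaling: activated Bmp receptors phosphorylate Smad1 and Smad5, which enter the nucleus with Smad4, the partner that Smad2/3 also use. The MH1 domain of Smads contacts GC-rich cores such as GGCGCC and the shorter CAGAC, also read as GTCTG on the other strand. In naive ESCs, Id proteins are known as mediators of the effect of Bmp on self-renewal.

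A bipartite Bmp-responsive string, GGCGCC followed after 5 bases by GTCT, lay in 5 Id sites and at each of the 4 genes. It was searched on both strands in the 500 bp around every midpoint. The 5 matches are printed with 15 bases on each side, read in the direction in which the GC-rich core comes first, from the GRCm38.p6 genome, the same build as the mm10 coordinates of the table. Capitals mark the core and the GTCT.
Id1, 3227 bp downstream of the TSS, chr2:152739456-152739500, plus strand: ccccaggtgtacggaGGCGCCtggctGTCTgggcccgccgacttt
Id2, 3041 bp downstream, chr12:25093029-25093073, minus strand: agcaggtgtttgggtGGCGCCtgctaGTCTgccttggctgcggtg
Id3, 3275 bp upstream, chr4:136140525-136140569, plus strand: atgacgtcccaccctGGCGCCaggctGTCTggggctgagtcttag
Id3, 4166 bp downstream, chr4:136147966-136148010, plus strand: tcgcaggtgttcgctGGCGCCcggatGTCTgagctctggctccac
Id4, 1781 bp downstream, in an intron of Id4, chr13:48262875-48262919, plus strand: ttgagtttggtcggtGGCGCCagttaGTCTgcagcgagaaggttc

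All 5 matches lay inside the deposited bounds of their site, between 8 and 202 bp from its midpoint. The same string was found in 52 of the 75880 listed sites (0.0685%) and in 0.146% of those within 10 kb of a TSS of any gene. The string, its spacing of 5 bases and the genes were chosen with earlier results of these data known. These shares are therefore a description and no test of enrichment. Other spacings were counted after the data had been seen. At each of the other 15 spacings from 0 to 15 bases, the string was found in 0 Id sites and in 43 to 111 of all listed sites. The GGCGCC core alone was found in 9586 sites, of which 0.542% held the bipartite string, against 5 of the 13 Id sites with the core. The string was searched as a Bmp-responsive element, and the Id genes are Bmp targets. The counts by spacing and by core are therefore no independent evidence on the spacing at these genes.

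**Figure D1:**
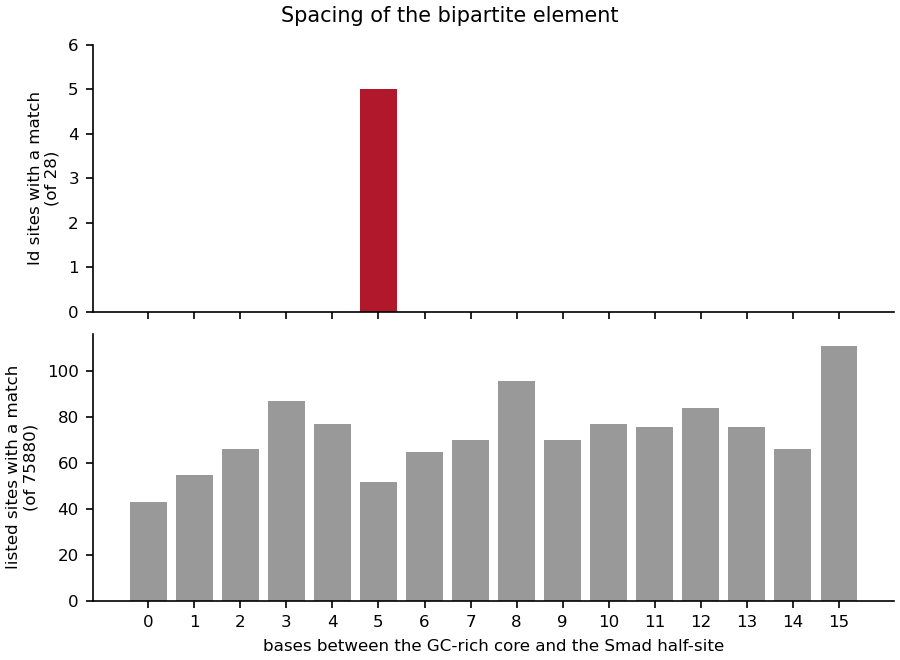
Number of sites (vertical axis) with GGCGCC followed by GTCT after 0 to 15 bases (horizontal axis), in the 28 Id sites (top) and in all 75880 listed sites (bottom). The 5 Id sites with a match all had a spacing of 5 bases, at which 52 of all sites had a match, fewer than at any other spacing except 0 bases. The spacing of 5 bases was chosen before the others were counted.

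Accessibility around the Id genes was higher in DKO at 19 of the 28 sites and lower at 9. The median difference was 0.265, against -0.08 over all listed sites, of which 41.6% were higher in DKO. Past 1.5-fold, 6 Id sites (21.4%) were higher in DKO, beside 8.51% of all listed sites. In the other direction 2 Id sites (7.14%) were lower, beside 16% of all listed sites. The 28 sites share 4 loci and are not replicates of a genotype.

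Near sites were set against listed sites within 10 kb of any TSS, and far sites against those beyond 10 kb of any TSS. The second match is loose. Some far Id sites lay within 10 kb of another TSS, such as those 188 bp from Mcts2 and 277 bp from E2f2. Within 10 kb of an Id TSS, 11 of 13 sites were higher in DKO, beside 46.4% of the 26653 listed sites within 10 kb of any TSS. Past 1.5-fold, 4 of the 13 were higher (30.8%, beside 6.18% of those listed sites). None of the 13 was past 1.5-fold lower, beside 9.21% of those listed sites, and the medians were 0.37 and -0.02. All 9 sites between 1 and 10 kb from an Id TSS were higher in DKO, by 0.07 to 1.5 with a median of 0.46. This band leaves out the 4 sites over the start sites, among them the 2 near sites that were lower in DKO, by -0.02 each. The share of listed sites in the same band was not computed. The 15 sites beyond 10 kb were split, with 8 higher and 7 lower, 2 past 1.5-fold in each direction (13.3% each) and a median of 0.03. Of the 49227 listed sites beyond 10 kb of any TSS, 39% were higher in DKO. Past 1.5-fold, 9.77% of them were higher and 19.6% lower, with a median of -0.13. The far Id median of 0.03 was above this value and above the -0.02 of listed sites within 10 kb of a TSS.

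**Figure D2:**
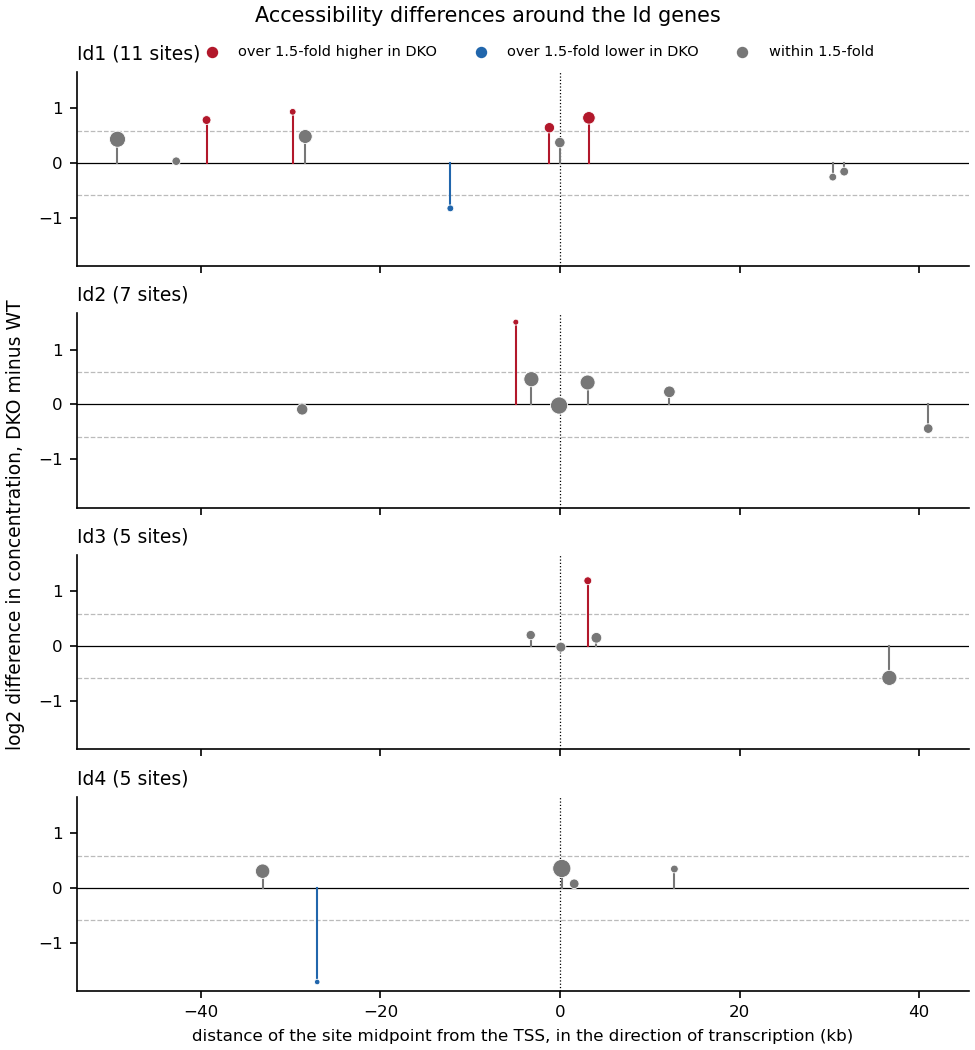
Difference in concentration (vertical axes, log2, DKO minus WT) at each Id site against the distance of its midpoint from the TSS (horizontal axis, kb, positive in the direction of transcription). A larger point has a higher concentration, and dashed lines mark 1.5-fold. Sites past 1.5-fold higher in DKO (red) lay within 5 kb of Id1, Id2 and Id3 or far upstream of Id1, and none lay at Id4.

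Of the sites over the 4 start sites themselves, those of Id1 and Id4 were higher in DKO and those of Id2 and Id3 differed little. At Id1, from which the element of a widely used Bmp reporter was taken, the TSS site (chr2:152736030-152736430) had a concentration of 5.06 in WT and 5.43 in DKO. The Id2 TSS site (chr12:25095850-25096540) was the strongest of its gene, at 6.96 in WT and 6.94 in DKO. At Id3 the TSS site (chr4:136143680-136144150) had 5.10 in WT and 5.08 in DKO. The Id4 TSS site (chr13:48260670-48261960), the strongest Id site by the concentration over both genotypes (7.13, against 6.95 at the Id2 TSS), had 6.94 in WT and 7.29 in DKO. The differences at Id1 and Id4 were 0.37 and 0.35, above those of 84.6% and 83.7% of all listed sites, and Id2 and Id3 each differed by -0.02. None of these 4 differences reached 1.5-fold, and among the 10204 listed sites within 200 bp of any TSS 3.66% were past it upward and 3.43% downward, with a median of 0.02.

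Per kb of site, so that genes can be compared, the WT level at the TSS was highest at Id2, with 180.4 normalized reads. Id4 followed with 95.2, Id1 with 83.4 and Id3 with 73.0 normalized reads per kb. In DKO the order was the same, at 178, 121.3, 107.8 and 72.0 normalized reads per kb. Whether neighbours in that order differ beyond the spread between differentiations was not tested.

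The promoters of Id2 and Id4 held a GGCGCC core, as did 9.59% of 32851 promoters of this length. They are shown because they lie under the strongest sites of their genes. The RefSeq promoter table of GRCm38.p6 had entries for 3 of the 4 genes, all but Id1. Printed are the 250 bases before each TSS, on the strand of the gene, with GGCGCC in capitals.
Id2 promoter, chr12:25096093-25096342, minus strand: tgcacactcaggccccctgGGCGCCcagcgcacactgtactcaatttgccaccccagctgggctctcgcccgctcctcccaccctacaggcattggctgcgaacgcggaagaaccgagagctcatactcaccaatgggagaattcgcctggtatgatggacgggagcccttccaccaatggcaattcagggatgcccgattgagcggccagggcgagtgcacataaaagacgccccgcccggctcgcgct
Id4 promoter, chr13:48260866-48261115, plus strand: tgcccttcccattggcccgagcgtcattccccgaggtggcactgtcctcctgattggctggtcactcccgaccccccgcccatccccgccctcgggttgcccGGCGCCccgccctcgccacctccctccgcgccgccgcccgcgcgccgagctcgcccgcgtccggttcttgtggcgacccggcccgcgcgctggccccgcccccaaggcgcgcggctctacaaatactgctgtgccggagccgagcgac
The Id3 promoter held no GC-rich core and 2 CAGAC strings, a string that 42.2% of all promoters held.

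Id1 had 11 sites, more than any other Id gene, and the largest summed difference. Over them, 360.1 normalized reads in WT stood against 484.4 in DKO, a log2 ratio of 0.43 over 4070 bp. Within 10 kb the ratio was 0.64, with 106.1 reads in WT and 165.5 in DKO. The 96 other sites within 1 Mb of the Id1 TSS had a median difference of -0.10, on the other side of 0.

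Both intergenic sites that flank the Id1 gene body were past 1.5-fold. The upstream one, 1181 bp before the TSS (chr2:152734890-152735250), had a concentration of 4.86 in WT and 5.50 in DKO, 1.56-fold higher. It covers the upstream region from which that reporter element came. The last 300 bases of that site are printed because 3 kinds of searched string stand together in them. Capitals mark GGCGCC, TGACGTCA (the cyclic AMP response element) and CAGAC or GTCTG.
Id1 upstream site, chr2:152734951-152735250, plus strand: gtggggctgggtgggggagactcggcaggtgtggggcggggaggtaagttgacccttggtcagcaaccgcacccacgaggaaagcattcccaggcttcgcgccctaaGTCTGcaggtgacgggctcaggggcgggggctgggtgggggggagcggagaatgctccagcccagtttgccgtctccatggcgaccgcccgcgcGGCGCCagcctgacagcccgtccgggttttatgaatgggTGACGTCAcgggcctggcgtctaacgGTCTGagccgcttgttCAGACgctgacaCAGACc
The GGCGCC began 1099 bp and the TGACGTCA 1060 bp upstream of the TSS. The 4 CAGAC or GTCTG strings began at 1193, 1034, 1018 and 1006 bp. TGACGTCA was found in 0.99% of all listed sites and in 2 Id sites, this one and the site 33126 bp upstream of Id4.

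The downstream one, 3219 bp after the TSS (chr2:152739120-152739820), had 5.45 in WT and 6.27 in DKO, 1.76-fold higher. It was the Id1 site with the bipartite string printed above, which lay 8 bp from its midpoint. Its difference of 0.82 exceeded that of 95.2% of all listed sites.

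Farther upstream of Id1, the other sites past 1.5-fold lay in or near H13, a neighbouring gene that encodes a signal peptide peptidase. In an H13 intron, the site 39371 bp upstream (chr2:152696750-152697010) had 4.13 in WT and 4.91 in DKO. In an untranslated exon of H13, the site 29776 bp upstream (chr2:152706390-152706560) had 2.59 in WT and 3.52 in DKO, the highest difference at this gene, 0.93. This weak site, with 6.02 and 11.5 normalized reads, was the one Id site with the palindrome GTCTAGAC, which 0.395% of all sites held.

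A single Id1 site was past 1.5-fold in the other direction. That site, 12216 bp upstream and intergenic (chr2:152723950-152724120), had 3.59 in WT and 2.76 in DKO, or 12.0 and 6.77 normalized reads. It was the lowest difference at Id1, -0.83. The strongest Id1 site, 49291 bp upstream (chr2:152686650-152687270), lay 188 bp from the TSS of Mcts2 and had 6.51 in WT and 6.94 in DKO. The remaining 4 Id1 sites, in an intron and an untranslated exon of H13 and in introns of Bcl2l1, differed by -0.26 to 0.48.

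**Figure D3:**
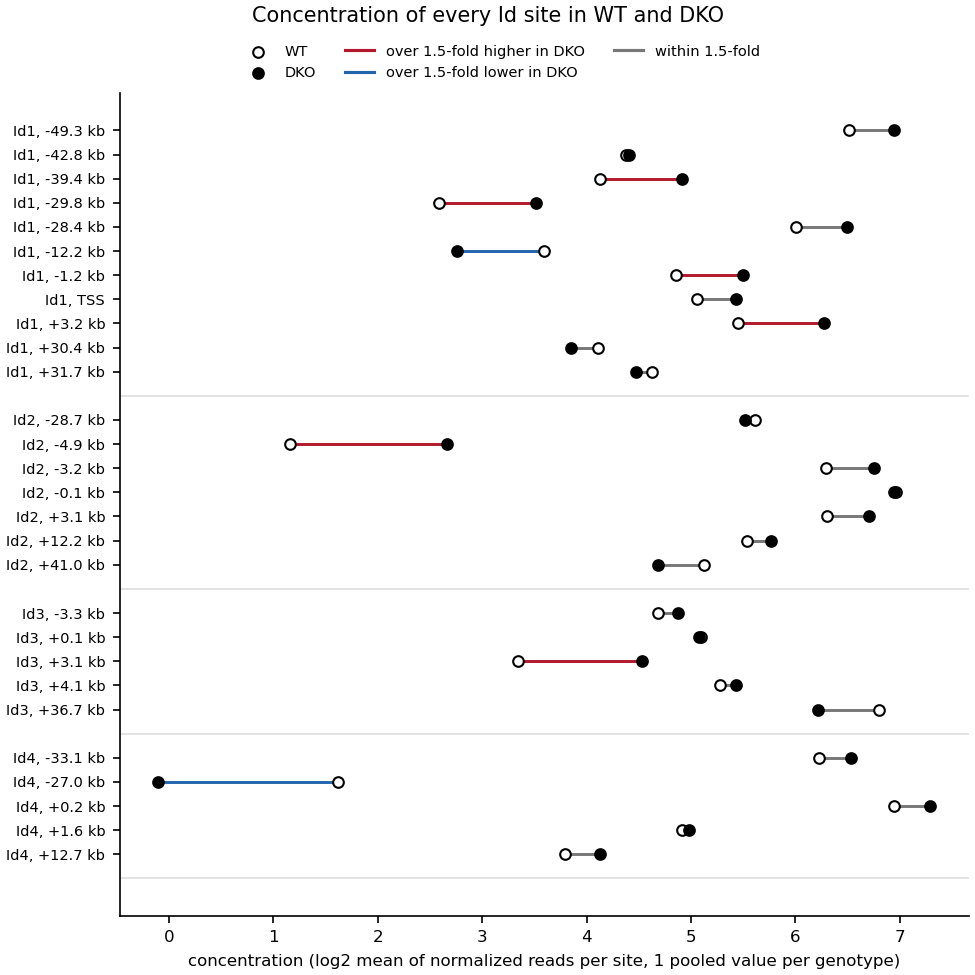
Concentration (horizontal axis, log2 mean of normalized reads, 1 pooled value per genotype) in WT (open) and DKO (filled) at each of the 28 Id sites, named by gene and distance from the TSS. The largest gaps stand at sites with low concentrations, such as the Id2 site 4923 bp upstream and the Id4 site 27046 bp upstream, while the Id2 and Id3 TSS values nearly coincide.

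Id2 had higher values in DKO on both sides of its start site, which itself differed by -0.02. Intergenic sites 3072 bp downstream (chr12:25092390-25093650) and 3188 bp upstream (chr12:25098690-25099870) were broad and strong. The downstream site, which carries the bipartite string, had 6.30 in WT and 6.70 in DKO. The upstream site had 6.29 in WT and 6.75 in DKO. Both stayed under 1.5-fold, with differences of 0.40 and 0.46.

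The Id2 site past 1.5-fold was a short and weak one, 4923 bp upstream (chr12:25100940-25101090). Its concentration was 1.16 in WT and 2.66 in DKO, a difference of 1.5 on the log2 scale that rests on 2.24 and 6.32 normalized reads. Among listed sites with a concentration under 4 over both genotypes, 20.5% were past 1.5-fold higher and 29.8% lower, so that sites past the limit are common at this level. The lowest difference at Id2, -0.44, was found 41012 bp downstream in an intron of Kidins220 (chr12:25054920-25055240), with 5.12 in WT and 4.68 in DKO. The remaining 2 sites differed by 0.23 and -0.09.

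Over its 7 sites, Id2 had 413.9 normalized reads in WT and 466.8 in DKO, a log2 ratio of 0.17. The 25 other sites within 1 Mb had a median difference of -0.30, with 0% past 1.5-fold higher and 32% lower.

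Id3 carried the largest difference among Id sites with a concentration of 4 or more over both genotypes. The intergenic site 3093 bp downstream (chr4:136146780-136147050) had 3.34 in WT and 4.53 in DKO, 2.28-fold higher, or 10.1 and 23.1 normalized reads. Its concentration over both genotypes, 4.05, reached the limit of 4 only through DKO. The site is printed whole for its difference. None of the strings marked in the sites above was found within these bases, and the 2 CAGAC strings of its 500 bp window lay outside its bounds.
Id3 downstream site, chr4:136146781-136147050, plus strand: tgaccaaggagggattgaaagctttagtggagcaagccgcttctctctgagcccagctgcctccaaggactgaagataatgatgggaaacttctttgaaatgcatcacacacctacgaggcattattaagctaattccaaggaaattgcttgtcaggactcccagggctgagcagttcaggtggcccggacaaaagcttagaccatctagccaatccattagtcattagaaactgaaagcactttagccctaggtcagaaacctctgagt
Sites with the bipartite string stood on either side of it and differed less. The one 3262 bp upstream of the TSS (chr4:136140400-136140720), in an intron of Gm42329, had 4.68 in WT and 4.88 in DKO. The one 4053 bp downstream (chr4:136147690-136148060) had 5.28 in WT and 5.43 in DKO.

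The strongest Id3 site went the other way. It lay 36683 bp downstream (chr4:136180120-136180890), 277 bp from the TSS of E2f2, a cell cycle transcription factor, over a coding exon of that gene. Its concentration was 6.80 in WT and 6.22 in DKO, a difference of -0.58 that falls just inside the 1.5-fold limit. It gave 111.4 of the 220.3 normalized reads summed over the 5 Id3 sites in WT and 74.5 of 204 in DKO, where the log2 ratio of the sums was -0.11. Within 10 kb, which leaves it out, the sums were 108.9 and 129.5 and the ratio was 0.25. Within 100 kb, which keeps it and adds farther sites, the ratio was 0.15. The direction of the Id3 sum thus depended on the window.

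Id4 was higher in DKO at 4 of its 5 sites, by 0.07 to 0.35. The site with the bipartite string, 1579 bp downstream (chr13:48262460-48262930), had 4.91 in WT and 4.98 in DKO, the lowest difference of the 5 sites with that string. That site lay 72 bp from the TSS of A330033J07Rik. The remaining 2 of these 4, each over an exon of a non-coding gene, differed by 0.30 and 0.34. They lay 32 bp from the TSS of Gm36183 and 29 bp from that of A330048O09Rik. The fifth site, 27046 bp upstream in an intron of A330033J07Rik (chr13:48233970-48234170), had 1.62 in WT and the lowest listed DKO value, -0.10. In WT this corresponds to 3.07 normalized reads, and no fold is given. The sum over the 5 Id4 sites was 244.8 normalized reads in WT and 298.9 in DKO, a log2 ratio of 0.29.

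Around Id3 and Id4 the surroundings lay on the same side of 0 as most of the Id sites. The 47 other sites within 1 Mb of the Id3 TSS had a median difference of 0.05, with 17% past 1.5-fold higher and 14.9% lower. The 39 around Id4 had a median of 0.04, with 7.69% higher and 2.56% lower.

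**Figure D4:**
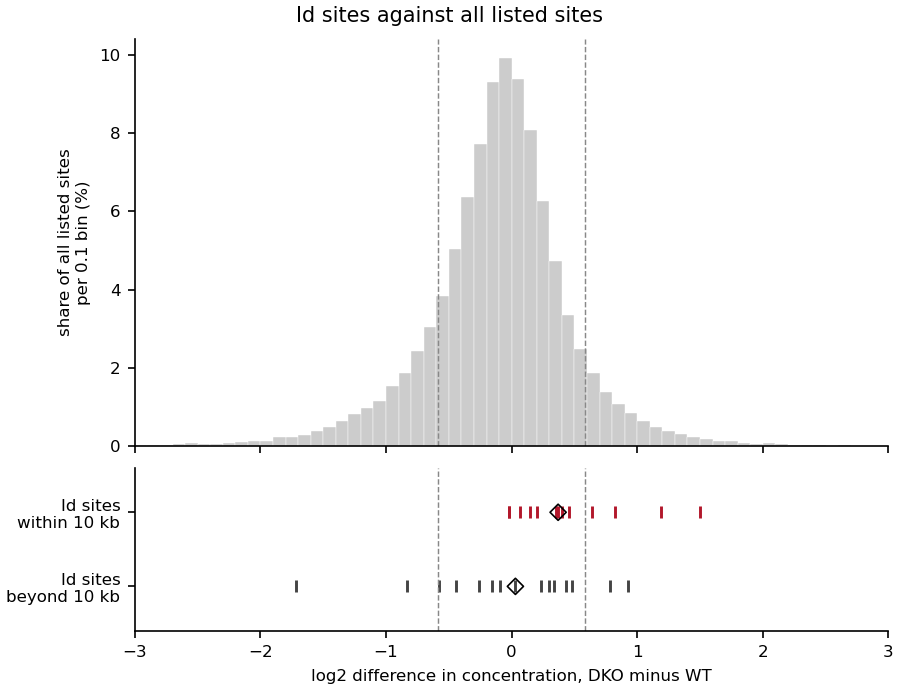
Share of all listed sites (vertical axis, percent per bin of 0.1) by log2 difference (horizontal axis, DKO minus WT), above the differences of the 13 Id sites within 10 kb and the 15 beyond (ticks, with diamonds at the medians of 0.37 and 0.03). Dashed lines mark 1.5-fold, and 247 listed sites beyond 3 on either side are not drawn. The near Id sites lie from -0.02 upward, to the right of the centre of all sites.

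The summed ratios were also set against those of other genes. Among 11409 genes with at least 5 listed sites within 50 kb, the median log2 ratio of summed reads was -0.01. The ratio of Id1 exceeded that of 99.1% of these genes, Id4 that of 95.7%, Id2 that of 85.6% and Id3 that of 28.8%. The rank of Id3 rests on its ratio of -0.11, which was 0.25 within 10 kb and 0.15 within 100 kb. That of Id1 rests on 0.43, which was 0.64 within 10 kb and 0.21 within 100 kb. The Id1 sum includes the site 188 bp from the Mcts2 TSS, with 91.1 normalized reads in WT and 122.8 in DKO. Neighbouring genes share sites in this ranking, and it is given as a description.

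The counts past 1.5-fold were also taken by concentration over both genotypes, a limit that a site can pass through its DKO value alone. Of the 22 Id sites with a concentration of 4 or more over both genotypes, 4 (18.2%) were past 1.5-fold higher and 0 lower. All 60226 listed sites at that level had 5.4% and 12.4%. Of these 4 Id sites, the one 3093 bp downstream of Id3 had 3.34 in WT and reached that level only through DKO. The Id1 sites among them had WT concentrations of 4.13, 4.86 and 5.45. Of the 6 weaker Id sites, 2 were higher and 2 lower. Counting error at these weak sites could not be computed, since the table gives no reads per library.

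The Id sites were rich in GC and in the GGCGCC core. Their median GC content in 500 bp was 58.1%, and 61.4% within 10 kb, against 50% over all listed sites and 57.8% over those within 10 kb of any TSS. GGCGCC was found in 13 Id sites (46.4%), 10 of them within 10 kb (76.9% of 13), against 12.6% of all listed sites and 26% of those within 10 kb of a TSS. CAGAC was found in 21 Id sites, a share of 75% beside 70.1% of all sites, and CANNTG, the E-box, in 25, beside 90.2%. The octamer ATGCAAAT and the FoxH1 core AATNCACA were found in 0 Id sites, beside 4.38% and 7.4% of all listed sites. GGCGCC is part of the bipartite string, and CAGAC overlaps the GTCT in it where a G follows.

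Differences at sites with the bipartite string were listed for Id sites and for other sites. The 5 Id sites with it were all higher in DKO, from 0.07 to 0.82 with a median of 0.20, 1 of them past 1.5-fold. In the other 47 listed sites with the string, 22 were higher, 3 were past 1.5-fold higher and 6 lower, and the median was -0.05. Past 1.5-fold, the shares of these 47 were 6.38% higher and 12.8% lower, beside 8.51% and 16% of all listed sites. Of all 52 sites with the string, 39 lay within 10 kb of a TSS. Listed sites at that distance had 6.18% higher and 9.21% lower. Whether the string goes with a difference was not tested.

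For other genes of the Bmp pathway, the background is that of all listed sites, which had 8.51% past 1.5-fold higher, 16% lower and a median of -0.08. The list of 12 other direct Smad1/5 targets had 68 sites within 50 kb, of which 4 (5.88%) were past 1.5-fold higher and 12 (17.6%) lower, with a median of -0.085. The inhibitory Smads, feedback inhibitors of the pathway, differed in sign. Smad6 had a summed log2 ratio of 0.17 over 3 sites with none past 1.5-fold, and Smad7 had -0.43 over 6 sites with 2 lower. At Atoh8, a helix-loop-helix factor, all 6 sites were past 1.5-fold lower, in a neighbourhood whose 79 other sites within 1 Mb had a median of -1.18. These are 6 of the 12 lower sites of the list, and the share without this gene was not computed. Msx2, a homeobox gene, had 2 of 3 sites lower, where the 31 other sites within 1 Mb had a median of 0.13. Sites past 1.5-fold higher were 1 at Hey1, 1 at Gata3 and 2 at Tfap2a, and Tfap2a and Dlx5 each had 1 lower.

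The 9 Bmp receptors and Smad mediators had 49 sites, 2 past 1.5-fold higher (4.08%) and 10 lower (20.4%), with a median of -0.14, beside the 8.51%, 16% and -0.08 of all listed sites. Most of the lower sites, 7, lay at the type I receptor gene Bmpr1b, with a summed log2 ratio of -0.50, where 97 other sites within 1 Mb had a median of -0.37. Acvr1 had 1 in each direction, and Smad1 had 1 higher and 2 lower. The 3 genes of E proteins, the partners that Id proteins bind, had 17 sites, 2 past 1.5-fold higher (11.8%) and 1 lower (5.88%), with a median of 0.27, against the same background. Tcf3 had a summed log2 ratio of 0.27 with 1 site higher, Tcf12 had 0.43 with 0 sites past 1.5-fold, and Tcf4 had -0.07 with 1 site in each direction.

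**Figure D5:**
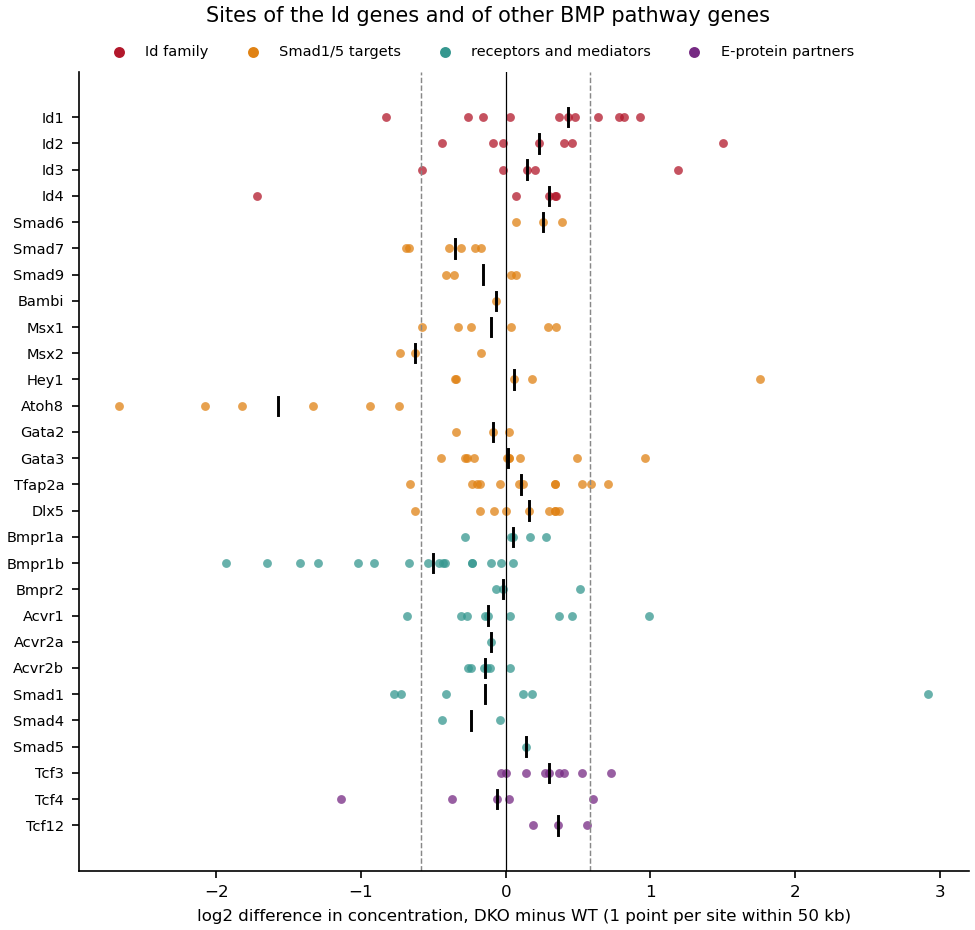
Difference in concentration (horizontal axis, log2, DKO minus WT) of every listed site within 50 kb of each Id gene and of 24 other genes, with 1 point per site and a black bar at the median of each gene. Dashed lines mark 1.5-fold. The bars of all 4 Id genes stand right of 0, as do those of Smad6, Tcf3 and Tcf12 among others, while Atoh8, Msx2 and Bmpr1b stand left of it.

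Just outside the 50 kb limit, the nearest listed sites were 62473 bp from the Id3 TSS, with a difference of 0.80, and 63334 bp from Id4, with 0.52. Those of Id1 lay at 66561 and 68404 bp with 0.10 and -0.50, and that of Id2 at 70727 bp with -0.65. The Id site nearest to the limit from within was the one over the Mcts2 promoter.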

How the data were processed

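Accessibility was measured by ATAC-seq in 3 differentiations each of WT and Smad2/3 DKO EpiLCs. The authors aligned reads to mm10 with Bowtie2, used SAMtools to drop duplicates, called sites in the triplicates against the genomic DNA control with DANPOS2, and compared genotypes with DiffBind. Versions and the normalization in DiffBind are not given in the sources used here. The values deposited by the authors are log2 mean normalized reads over WT, over DKO and over all libraries. The deposited table also holds the authors' log2 fold, p-value and FDR per site, which were not used. It has 0 columns per library. The count test planned for values per library was replaced by a description, and total reads and their precision are unknown.

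Differences were recomputed from the deposited log2 concentrations, which have 2 decimals, and reads as 2 to that power. Distances run from the midpoint of a site to the TSSs of 45756 curated RefSeq transcripts of GRCm38.p6. Deposited starts were read as 0-based for sequences, which are numbered from 1. Strings were matched exactly on both strands. Named are every site within 1 kb of an Id TSS, every site past 1.5-fold, and at each gene the strongest site and the highest and lowest difference. Pathway genes are named with at least 1 site past 1.5-fold. Smad6, Tcf12 and the sites with the bipartite string are not covered by it and were added with their values known. The genes, lists and strings were chosen with earlier results of these data known. Alternatives were other folds, centrings, low-value rules, windows, site-to-gene links and TSS sets. The code was tested on simulated data. Python 3.11.15, numpy 2.4.6, pandas 2.3.3, pysam 0.24.0 and matplotlib 3.10.9 were used. Signal tracks and other assays of the study were not analysed here.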

Additional observations from a re-analysis of the deposited data

How the results depend on the processing

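The count of Id sites past 1.5-fold higher in DKO was 6 of 28. It ranged from 4 to 9 under the other windows, centrings, low-value rules, site positions and TSS sets. The number of sites differed between these runs, with 4 of 13 higher within 10 kb and 9 of 40 within 100 kb. With a limit of 0.322 on the log2 scale the count was 13 of 28 and with a limit of 1 it was 2 of 28. Shares of all listed sites are not given at these limits. The count of lower sites was 2. It became 4 and 1 at these limits, and 0 at concentrations of at least 4 or within 10 kb. It was 1 within 25 kb, 5 of 40 within 100 kb, and 1 where the nearest TSS had to be that of an Id gene. At 1.5-fold, 8.51% of all listed sites were higher and 16% lower. The median difference of 0.265 stayed above 0 in every alternative run, at 0.345 after centring on all listed sites or within 25 kb, 0.37 within 10 kb, 0.23 within 100 kb, 0.36 with an Id gene nearest, and 0.29 after centring on the other sites within 1 Mb, chosen after seeing the data. Centring on all listed sites moved the summed log2 ratios of Id1, Id2, Id3 and Id4 to 0.508, 0.253, -0.031 and 0.368. Within 10 kb they were 0.642, 0.264, 0.25 and 0.299, and with that gene nearest 0.544, 0.205, 0.265 and 0.35. Within 100 kb those of Id1, Id2 and Id3 were 0.214, 0.16 and 0.147, and with 1 read added that of Id1 was 0.417. Id3 therefore reversed from its -0.111 in these windows and under the nearest-gene link, where the E2f2 promoter site is left out or more sites are added. No paired analysis was possible because the columns carry no replicate numbers. Leaving out a replicate was not run for the same reason. Depth and replicate error could not be computed without values per library, and the authors' per-site test results were not used to bound these differences.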
